A study of Mus musculus with 8 samples.

Results

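Transcripts of the mitochondrial carrier family SLC25 were examined in blood mononuclear cells of mice given fucoidan, a sulphated seaweed polysaccharide, or saline. Members were taken by name and biotype, as the protein-coding rows of the gene count table whose symbol starts with Slc25a, and there were 47 of them among 56748 genes. Male wild-type C57BL/6J mice, 8 weeks old, on a standard diet received daily gavage for 1 month, either with saline (5 libraries) or with 200 mg/kg of fucoidan from Undaria pinnatifida (3 libraries). Mononuclear cells were separated on a density gradient from blood taken by cardiac puncture and their poly(A) RNA was sequenced. Each library is titled as a biological replicate, and whether animals were pooled is not stated. For the fucoidan libraries the protocol field names saline, whereas titles and characteristics name fucoidan, and the latter were followed.

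SLC25 carriers are small proteins of the inner mitochondrial membrane that move metabolites, nucleotides, cofactors and metals between the cytosol and the matrix, most of them by exchanging one solute for another. They supply substrates to the respiratory chain, export ATP and bring in what the matrix needs for haem, iron-sulphur clusters and one-carbon metabolism. In red cell precursors some of them serve haem synthesis, which begins and ends in the matrix and needs glycine and iron there. Red cells lose their mitochondria as they mature, while lymphocytes, monocytes and platelets keep theirs.

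Of the 47 members, 42 passed a filter on low counts and were tested, and 5 of them rose after fucoidan by edgeR's quasi-likelihood test with Benjamini-Hochberg adjustment over all 14723 genes tested. The 5 were Slc25a39, Slc25a37, Slc25a51, Slc25a10 and Slc25a21, of which Slc25a21 passed the filter only through the fucoidan libraries; with at least 10 counts asked of every library it was not tested and 4 were called. None of the 42 fell by that test, and 2 were lower at an unadjusted p under 0.05, while DESeq2 and limma-voom also called 0 lower, with 2 and 5 lower at an unadjusted p under 0.05. Among all genes tested 13.8% were called, 9.11% higher and 4.65% lower, so the members' 11.9% lies near the background. Their median log2 fold change was -0.03, beside -0.04 over all genes tested, and 23 of the 42 had a value below 0, beside 55.1% of all genes tested. Between the groups 9 of the 42 (21.4%) did not overlap, beside 22.6% of all genes tested.

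**Figure D1:**
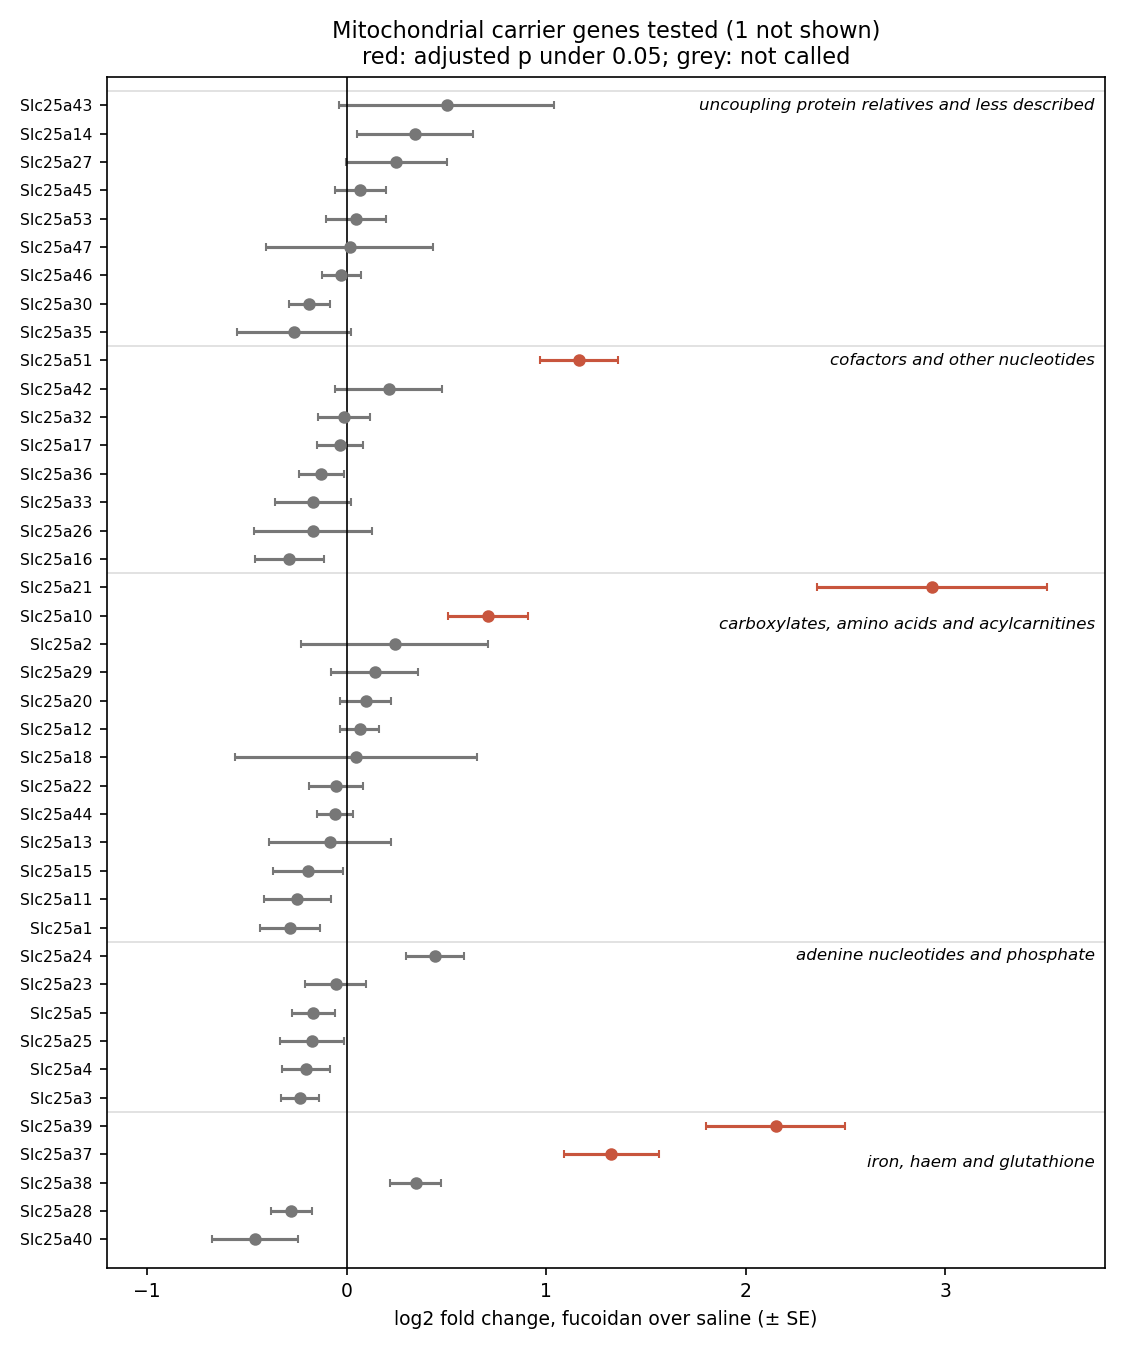
Log2 fold change (fucoidan over saline, x axis) with its standard error for the tested carrier genes (y axis, 1 of 42 not shown), sorted within 5 groups by transported solute. The 5 red points passed the test, all to the right of 0, and the grey points lie between -0.46 and 0.50.

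The promoters of 3 members are shown because they stand on either side of that result: Slc25a39 and Slc25a10 rose, and Slc25a28, the close relative of Slc25a37, did not. The table of RefSeq promoters (GRCm38.p6) matched 36 of the 47 members with 46 start sites; Slc25a37 and Slc25a51 had no entry. Each line gives the 250 bases before the start site on the strand of the gene. They lie on chr11:102407518-102407767 (minus strand), chr11:120491587-120491836 (plus strand) and chr19:43674882-43675131 (minus strand). Capitals mark GATA motifs, the binding letters of the GATA factors, and KLF motifs, the CACCC-type letters of the Krüppel-like factors.
Slc25a39: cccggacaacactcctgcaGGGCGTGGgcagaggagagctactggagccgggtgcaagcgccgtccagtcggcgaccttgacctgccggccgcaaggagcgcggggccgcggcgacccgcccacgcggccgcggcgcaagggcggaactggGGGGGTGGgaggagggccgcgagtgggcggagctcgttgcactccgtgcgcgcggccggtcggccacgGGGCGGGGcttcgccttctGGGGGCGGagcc
Slc25a10: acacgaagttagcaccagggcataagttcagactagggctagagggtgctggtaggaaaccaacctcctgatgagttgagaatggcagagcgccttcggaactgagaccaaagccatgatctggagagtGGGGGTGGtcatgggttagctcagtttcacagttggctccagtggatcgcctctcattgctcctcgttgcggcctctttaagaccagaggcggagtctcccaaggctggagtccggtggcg
Slc25a28: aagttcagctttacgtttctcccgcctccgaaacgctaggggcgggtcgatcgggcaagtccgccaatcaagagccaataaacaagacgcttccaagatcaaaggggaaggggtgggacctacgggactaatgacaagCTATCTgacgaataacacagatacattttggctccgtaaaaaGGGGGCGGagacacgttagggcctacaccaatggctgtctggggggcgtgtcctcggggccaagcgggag
The GATA search took the letters GATA after A or T and before A or G, and the KLF search CCNCNCCC, on both strands, with overlapping matches counted. Slc25a39 held 0 GATA and 4 KLF matches, Slc25a10 held 0 and 1, and Slc25a28 held 1 and 1. The 2 start sites of Slc25a21 held 0 GATA matches each, and 1 and 0 KLF matches. Among all 32851 promoters listed, 26.5% held a GATA match and 45.9% a KLF match, and among the 46 member promoters 13.04% and 65.2%. GC content was 77.2% in the Slc25a39 window, 56.0% in that of Slc25a10 and 55.6% in that of Slc25a28. A match is a description of the letters and not a site of binding.

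Cell type markers differed between the groups, while total counts overlapped. The totals ran from 15453636 to 16334932 after saline and from 13061703 to 15798058 after fucoidan. Haemoglobin transcripts took 3.51 to 8.48% of counts after saline, highest in replicate 3, and 13.5 to 24.1% after fucoidan, highest in replicate 3. Of 18 erythroid markers measured out of 20, 17 rose, and their summed level was 32642 to 90291 CPM (counts scaled to library size with TMM factors) after saline and 158472 to 378402 CPM after fucoidan; Klf1 was below the filter and Ahsp was not matched by name. All 15 platelet markers measured rose (summed 2992 to 6257 against 8940 to 18948 CPM), as did 10 of 10 natural killer markers (472 to 810 against 1429 to 1614 CPM), while 9 of 10 B cell markers fell (4760 to 6173 against 2806 to 4041 CPM). Markers of T cells (835 to 999 against 1098 to 1435 CPM), monocytes (3595 to 6633 against 3469 to 4204 CPM), neutrophils (951 to 1992 against 991 to 1251 CPM) and plasma cells (139 to 190 against 160 to 182 CPM) were present in every library. Of these, 2 of 10 T cell markers were called higher, 1 of 10 monocyte and 2 of 6 plasma cell markers lower, and 0 of 10 neutrophil markers either way. Among all genes tested 9.11% were called higher and 4.65% lower. Of the 10 T cell markers 9 had a positive log2 value and 1 a negative one. Between the groups 70% of them did not overlap, beside 22.6% of all genes tested. In bulk RNA, more cells of a type and more RNA per cell cannot be told apart. The part of cell content in the values below was not tested.

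Slc25a39 and Slc25a37, carriers of glutathione and iron, were the abundant members that rose most. Slc25a39, the main importer of glutathione into the matrix (ENSMUSG00000018677, GRCm39 chromosome 11, 102293811 to 102298772), stood at 224, 203, 464, 238 and 172 CPM in saline replicates 1 to 5 and at 751, 835 and 1882 CPM in fucoidan replicates 1 to 3. Every fucoidan library was above every saline library, and replicate 3 was the highest of each group. The rise was 4.44-fold (log2 2.15, SE 0.349, adjusted p = 0.00406). Slc25a37, mitoferrin-1, which brings iron into the mitochondria of developing red cells (ENSMUSG00000034248, chromosome 14, 69479297 to 69522561), stood at 214, 254, 344, 248 and 232 CPM after saline and at 426, 541 and 978 CPM after fucoidan. Here too the groups did not overlap and replicate 3 was highest in both. It rose 2.51-fold (log2 1.33, SE 0.239, adjusted p = 0.00533). Without fucoidan replicate 3 the log2 values of Slc25a39 and Slc25a37 were 1.62 and 0.91, both still called (adjusted p = 0.0202 and 0.0165), and without saline replicate 3 they were 2.47 and 1.46.

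The relatives of these genes gave other values. Slc25a28, mitoferrin-2, the iron importer of most other cells (ENSMUSG00000040414, chromosome 19, 43652240 to 43663320), stood at 57.1, 64.2, 60.6, 65.7 and 56.0 CPM after saline and 54.9, 50.5 and 44.7 CPM after fucoidan. All fucoidan libraries were below all saline libraries, but the log2 difference of -0.28 (SE 0.103) did not pass (adjusted p = 0.101). Slc25a40, the less abundant glutathione carrier related to Slc25a39 (ENSMUSG00000054099, chromosome 5, 8472850 to 8504797), was at 7.30, 8.61, 8.93, 12.8 and 7.51 CPM after saline and 5.40, 7.41 and 6.93 CPM after fucoidan. Its groups overlapped at saline replicate 1 (log2 -0.46, SE 0.214, adjusted p = 0.190). Slc25a38, which is needed for glycine to enter the matrix for the first step of haem synthesis (ENSMUSG00000032519, chromosome 9, 119939440 to 119953570), had 29.5, 26.0, 31.8, 21.2 and 28.3 CPM after saline and 35.2, 35.1 and 34.0 CPM after fucoidan. The 3 fucoidan values lay close together and above all saline values, yet the log2 difference of 0.35 (SE 0.129) missed the threshold in edgeR (adjusted p = 0.103). Limma-voom with quality weights called it (log2 0.42, adjusted p = 0.0421), and the other 15 alternatives did not (adjusted p = 0.0684 to 0.256, the highest under the replicate block).

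**Figure D2:**
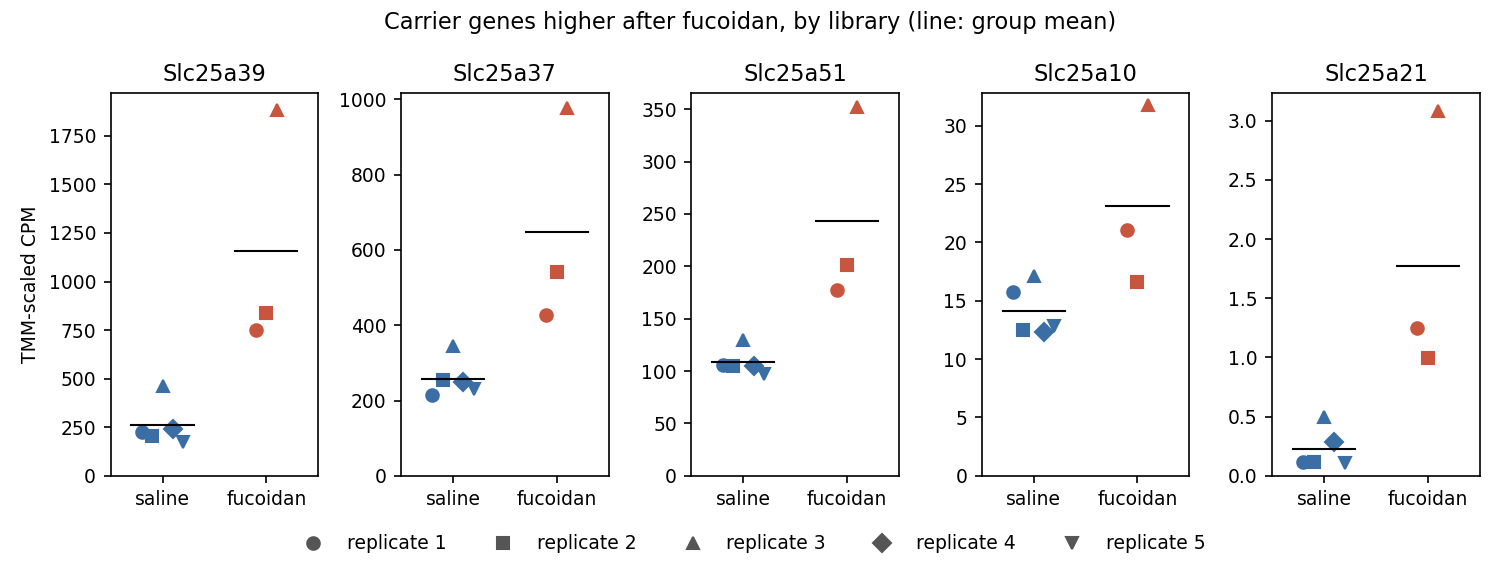
TMM-scaled CPM (y axis, from 0, a scale for each gene) of the 5 carrier genes that rose, with 1 point per library, saline in blue and fucoidan in red, symbols for the replicate number and a line at the group mean. Replicate 3 is the highest fucoidan library in all 5 panels, and the groups overlap in the Slc25a10 panel alone.

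Ratios between carriers within a library need no scaling, and 8 pairs were compared. Slc25a37 had 3.74, 3.96, 5.68, 3.78 and 4.14 counts per Slc25a28 count in saline replicates 1 to 5 and 7.76, 10.7 and 21.9 in fucoidan replicates 1 to 3. The mean log2 ratio was thus higher by 1.54 after fucoidan (2.07 ± 0.250, SD, n = 5, against 3.61 ± 0.765, SD, n = 3; two-sided exact permutation, p = 0.0357, and 0.0714 after adjustment over the 8 pairs). For Slc25a39 against Slc25a40 the counts per count were 30.7, 23.6, 52.0, 18.7 and 22.9 after saline and 139, 113 and 272 after fucoidan, a mean log2 difference of 2.55 with the same exact permutation p. Slc25a38 had 0.131, 0.128, 0.0685, 0.0887 and 0.165 counts per Slc25a39 count after saline and 0.0468, 0.0420 and 0.0181 after fucoidan, a mean log2 difference of -1.76. In that pair every fucoidan library lay below every saline library. These 3 pairs and Slc25a24 over Slc25a25 were the ones without overlap. Each of the 3 holds Slc25a37 or Slc25a39, which had already been called. They therefore largely repeat those rises and are no separate support for them. With 5 and 3 libraries there are 56 arrangements, and 0.0357 is the smallest p they can give. No pair reached 0.05 after adjustment.

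**Figure D3:**
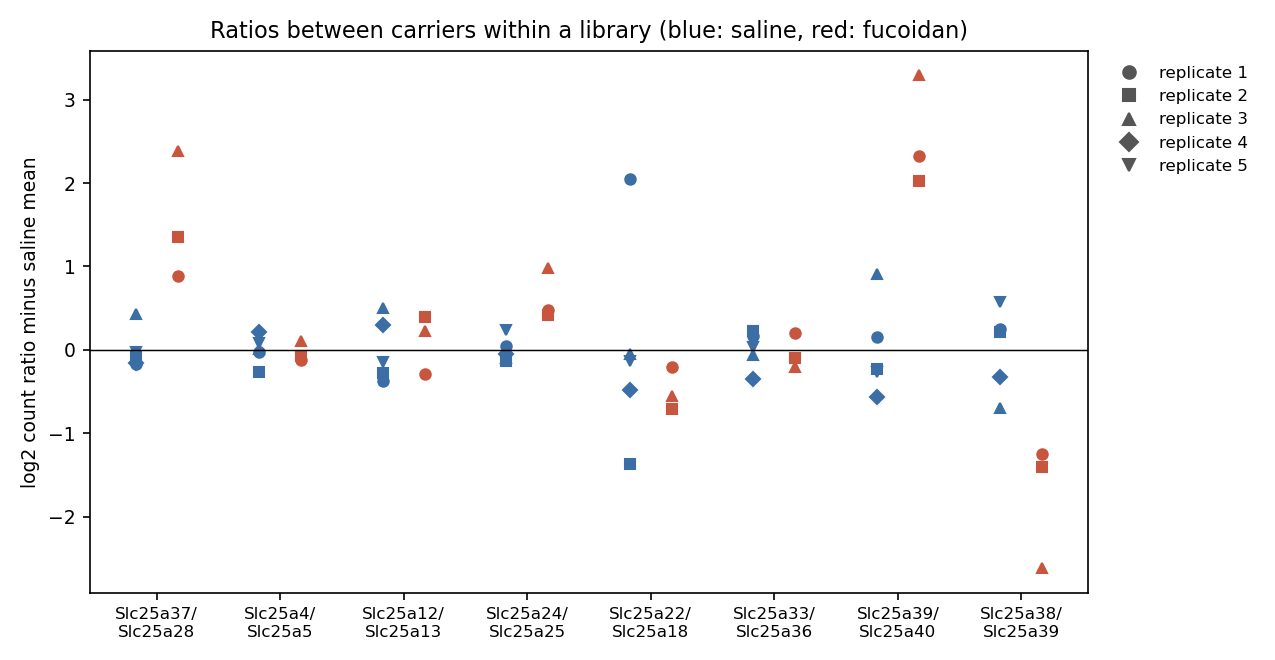
Log2 ratio of the counts of 2 carriers within each library, less the saline mean of that pair (y axis), for 8 pairs (x axis), saline in blue and fucoidan in red. The fucoidan libraries lie apart from the saline libraries in 4 pairs, upward for Slc25a37/Slc25a28, Slc25a39/Slc25a40 and Slc25a24/Slc25a25 and downward for Slc25a38/Slc25a39.

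Among carriers of cofactors and nucleotides 1 of 9 tested rose (11.1%, near the 9.11% of all genes tested) and 0 fell. This was Slc25a51, which imports NAD+ into the matrix (ENSMUSG00000045973, chromosome 4, 45395923 to 45408766). Its levels were 105, 105, 130, 105 and 97.3 CPM after saline and 177, 201 and 352 CPM after fucoidan. The saline libraries were close to each other apart from replicate 3, and all fucoidan libraries were higher. The rise was 2.24-fold (log2 1.16, SE 0.195, adjusted p = 0.00435), with a log2 value of 0.81 without fucoidan replicate 3 (adjusted p = 0.0133). Slc25a36, a pyrimidine nucleotide carrier, was at 58.7 ± 6.38 CPM (SD, n = 5) after saline and 53.8 ± 4.73 CPM (SD, n = 3) after fucoidan (log2 -0.13, SE 0.113). Slc25a16 had the lowest value of the group (log2 -0.29, SE 0.173, adjusted p = 0.309).

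Of 13 tested carriers of carboxylates, amino acids and acylcarnitines, 2 rose (15.4%, beside 9.11% of all genes tested) and 0 fell. Slc25a10, the dicarboxylate carrier, which exchanges malate or succinate for phosphate (ENSMUSG00000025792, chromosome 11, 120382666 to 120390013), had 15.7, 12.5, 17.1, 12.3 and 12.9 CPM after saline and 21.04, 16.6 and 31.8 CPM after fucoidan. Fucoidan replicate 2 lay below saline replicate 3, so the groups overlapped. Its 1.63-fold rise (log2 0.71, SE 0.200, adjusted p = 0.0377) was no longer called without fucoidan replicate 3 (log2 0.43, adjusted p = 0.198), fucoidan replicate 1 (adjusted p = 0.0694) or saline replicates 2, 4 or 5 (adjusted p = 0.0657, 0.0922 and 0.0768). Slc25a21, the oxodicarboxylate carrier of lysine and tryptophan breakdown (ENSMUSG00000035472, chromosome 12, 56759419 to 57244257), was rare: 2, 2, 8, 5 and 2 counts in the saline libraries and 18, 13 and 28 in the fucoidan libraries. Since the fucoidan libraries alone took it past the filter, a difference was built into its being tested. Its fitted change was log2 2.93 (SE 0.578, adjusted p = 0.00758), and without fucoidan replicate 3 log2 2.33 (adjusted p = 0.0517).

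The other 11 carriers of that group, among them those that join mitochondrial and cytosolic metabolism in most cells, were not called. Slc25a1, which exports citrate for fatty acid synthesis (ENSMUSG00000003528, chromosome 16, 17743087 to 17746083), was at 26.9, 19.2, 23.3, 23.1 and 18.4 CPM after saline and 20.8, 17.1 and 16.6 CPM after fucoidan (log2 -0.28, SE 0.149, adjusted p = 0.244). The oxoglutarate carrier Slc25a11, part of the malate-aspartate shuttle (ENSMUSG00000014606, chromosome 11, 70535022 to 70538305), had 83.7, 47.1, 56.4, 53.9 and 55.5 CPM after saline and 54.1, 48.0 and 47.9 CPM after fucoidan. Saline replicate 1 stood above all other libraries, and the log2 difference was -0.25 (SE 0.167, adjusted p = 0.373). Its gene model shares 245 bases with Rnf167 on the opposite strand, and the strand setting of the counting is not given, so reads there cannot be assigned with certainty. Slc25a12, the aspartate-glutamate carrier of the same shuttle, was at 48.8 ± 4.10 CPM (SD, n = 5) after saline and 51.04 ± 2.03 CPM (SD, n = 3) after fucoidan (log2 0.06, SE 0.0977). Slc25a20, which brings acylcarnitines to fatty acid oxidation (ENSMUSG00000032602, chromosome 9, 108539287 to 108561840), had 30.8, 23.8, 26.5, 30.2 and 22.6 CPM after saline and 30.3, 27.3 and 28.2 CPM after fucoidan, with groups that overlapped throughout (log2 0.10, SE 0.126, adjusted p = 0.678). Slc25a44, the carrier of branched-chain amino acids, was at 38.6 ± 1.29 CPM (SD, n = 5) and 37.1 ± 2.33 CPM (SD, n = 3) (log2 -0.06, SE 0.0899).

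None of 6 tested carriers of adenine nucleotides and phosphate was called by edgeR, beside 13.8% of all genes tested. Slc25a3, which brings in phosphate for ATP synthesis (ENSMUSG00000061904, chromosome 10, 90952436 to 90959921), was at 260, 270, 293, 272 and 264 CPM after saline and 245, 226 and 222 CPM after fucoidan. The fucoidan libraries were all lower, by log2 -0.23 (SE 0.0945), which did not pass (adjusted p = 0.130). Slc25a5, the ADP/ATP translocase of dividing cells (ENSMUSG00000016319, chromosome X, 36059304 to 36062460), had 271, 228, 233, 221 and 224 CPM after saline and 228, 199 and 202 CPM after fucoidan (log2 -0.17, SE 0.106, adjusted p = 0.341). Its heart and muscle counterpart Slc25a4 (ENSMUSG00000031633, chromosome 8, 46659834 to 46664321) had 59.4, 42.6, 52.4, 57.2 and 52.7 CPM after saline and 46.8, 42 and 48.9 CPM after fucoidan (log2 -0.20, SE 0.120, adjusted p = 0.296). In that pair the groups overlapped: Slc25a4 counts per Slc25a5 count were 0.187 to 0.258 after saline and 0.205 to 0.241 after fucoidan, a mean log2 difference of -0.03 (exact two-sided permutation p = 0.786, adjusted p = 0.893). The pseudogene row Slc25a5-ps held 0 counts, and reads of other copies of Slc25a5 may be split in ways that cannot be seen here.

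Slc25a24, a calcium-regulated carrier that exchanges ATP-Mg for phosphate (ENSMUSG00000040322, chromosome 3, 109030465 to 109075773), was the only one of these 6 with a positive log2 value. Its levels were 26.8, 25.8, 18.2, 19.4 and 21.8 CPM after saline and 29.3, 28.4 and 33.9 CPM after fucoidan, without overlap. The log2 difference of 0.44 (SE 0.145) missed the threshold in edgeR (adjusted p = 0.0659), while DESeq2 and limma-voom called it (adjusted p = 0.0353 and 0.0162). Over the 16 alternatives its adjusted p ran from 0.0162 to 0.227, with 0.210 under the replicate block and 0.107 to 0.227 on leaving out 1 fucoidan library. In edgeR it was called without saline replicate 1 or 2 (adjusted p = 0.0323 and 0.0477). Without saline replicate 3, 4 or 5 it was not (adjusted p = 0.112, 0.145 and 0.116). Per count of Slc25a25, its near relative, it had 0.983, 0.873, 0.894, 0.918 and 1.12 counts after saline and 1.33, 1.27 and 1.88 counts after fucoidan, a mean log2 difference of 0.62 (exact two-sided permutation p = 0.0357, adjusted p = 0.0714). The gene model of Slc25a25 shares 989 bases with Naif1 on the opposite strand, where reads cannot be assigned with certainty either.

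Of the 12 relatives of uncoupling proteins and less described members, 9 were tested and 0 called, beside 13.8% of all genes tested. Their log2 values ran from -0.26 to 0.50. The highest was that of Slc25a43 (SE 0.539), which was below 1.25 CPM in all libraries. The 5 members that did not pass the filter were Slc25a31, the ADP/ATP translocase of the germ line, Slc25a34, Slc25a41, Slc25a48 and Slc25a54, and the last 2 had 0 counts in all 8 libraries. Of the 37 members tested and not called, 24 had a saline mean of at least 10 CPM, and their log2 values lay between -0.29 and 0.44. The median SE over the 37 was 0.150.

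Slc25a39 and Slc25a37 also made up more of the family's own counts in each fucoidan library than in any saline library. The family took 0.209, 0.209, 0.230, 0.210 and 0.206% of all counts in saline replicates 1 to 5 and 0.240, 0.260 and 0.307% in fucoidan replicates 1 to 3. Slc25a39, Slc25a37 and Slc25a51 together held 28.3, 30.6, 41.6, 31.4 and 28.3% of the family's counts after saline and 51.7, 57.1 and 72.9% after fucoidan. These 3 were chosen for their rise, so the sum is a description only. In scaled levels the other 44 members summed to 1377, 1277, 1317, 1288 and 1267 CPM after saline and to 1265, 1183 and 1194 CPM after fucoidan, a ratio of the means of 0.930. Slc25a3 held 12.996 to 14.9% of the family after saline and 5.04 to 9.34% after fucoidan, and Slc25a5 10.3 to 14.1% and 4.59 to 8.72%, shares that also fall where other members take more of the total.

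**Figure D4:**
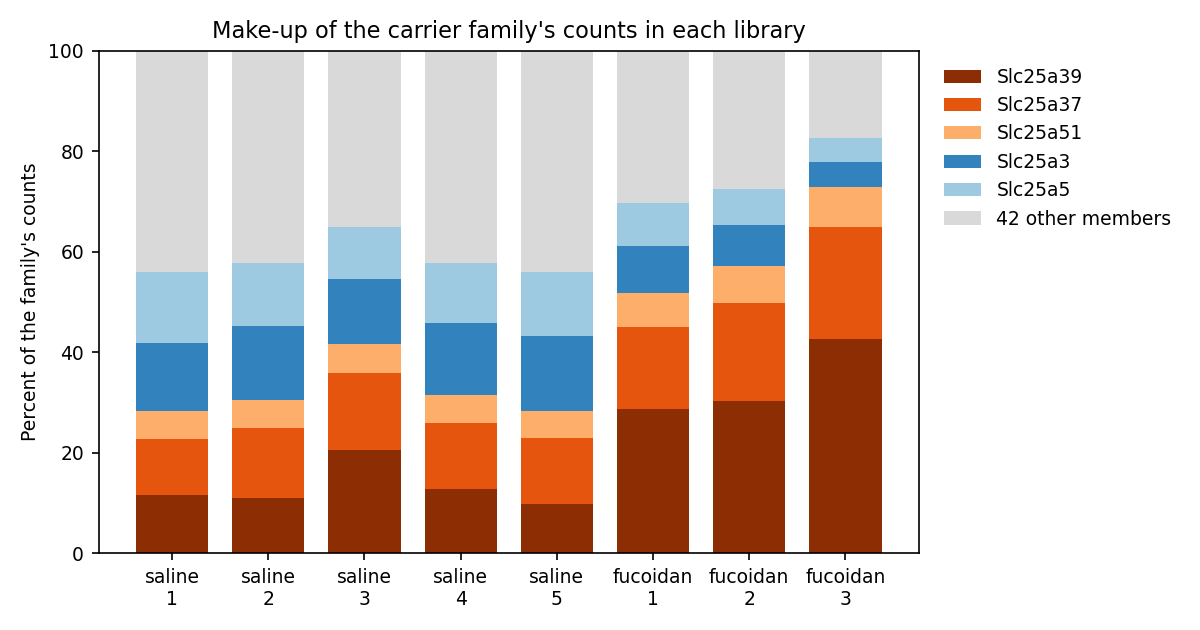
Percent of the family's counts (y axis, 0 to 100) held by 5 members and by the other 42 in each library (x axis). Slc25a39, Slc25a37 and Slc25a51 (brown and orange) take 28.3 to 41.6% in the saline libraries and 51.7 to 72.9% in the fucoidan libraries.

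Per gene length, as RPKM (scaled CPM per kilobase of the gene model), Slc25a5 stood first after saline at 143 ± 12.3 (SD, n = 5), followed by Slc25a39 at 94.5 ± 42.3, Slc25a3 at 49.0 ± 2.32 and Slc25a37 at 42.9 ± 8.39. The ranges of Slc25a5 and Slc25a39 overlapped (135 to 164 and 62.4 to 168), as did those of Slc25a3 and Slc25a37 (46.8 to 52.8 and 35.5 to 57.2). Slc25a11, Slc25a4 and Slc25a51 followed at 27.97 ± 6.67, 22.5 ± 2.76 and 19.7 ± 2.26, each overlapping with the next. After fucoidan the order of the means was Slc25a39 at 420 ± 229 (SD, n = 3), Slc25a5 at 127 ± 9.85, Slc25a37 at 108 ± 48.3, Slc25a51 at 44.2 ± 17.2 and Slc25a3 at 41.6 ± 2.16.

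**Figure D5:**
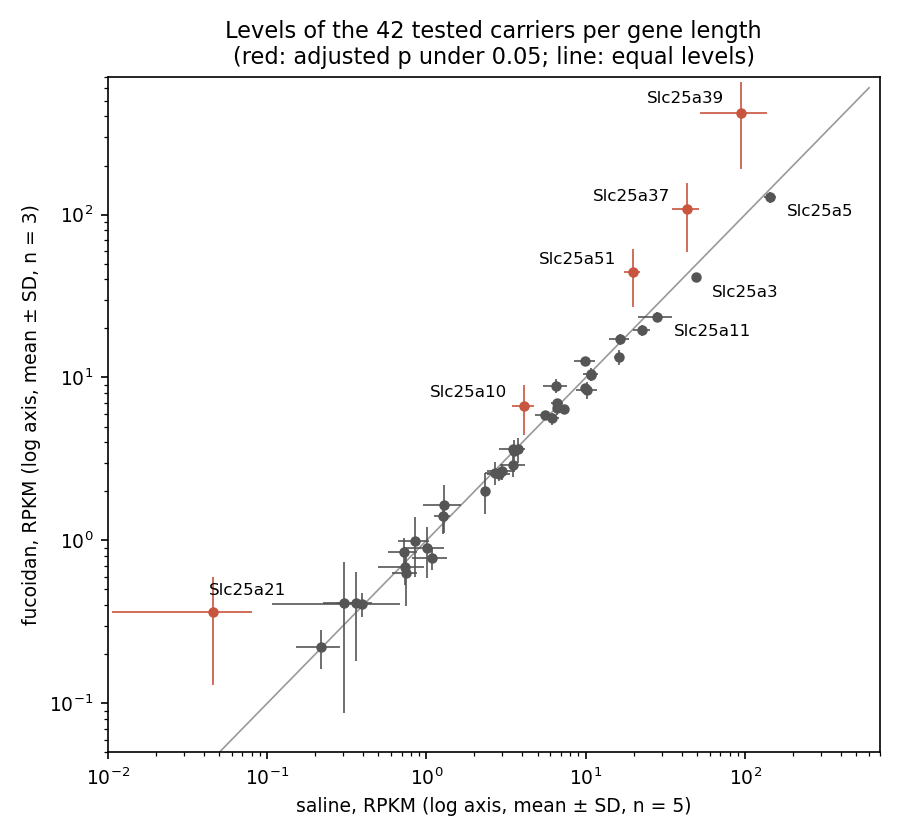
Mean RPKM ± SD of the 42 tested carriers after saline (x axis, log scale, n = 5) and fucoidan (y axis, log scale, n = 3), with a line at equal levels. The 5 genes that rose lie above the line, and Slc25a5, Slc25a3 and Slc25a11, at 127, 41.6 and 23.6 RPKM after fucoidan, lie below it.

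Related mitochondrial genes were set beside the carriers, by lists of other names of the family, carrier import, other channels and carriers, haem synthesis, ATP synthase and matrix proteins. Of the family members that carry other names, Ucp2, an uncoupling protein of immune cells, rose from 1118 to 2546 CPM (log2 1.19, SE 0.221, adjusted p = 0.00599), while Mtch1 and Mtch2, outer membrane relatives, had log2 values of -0.29 and -0.19 without a call, and Ucp1 and Ucp3 were below the filter. Among 9 haem synthesis enzymes 4 rose and 0 fell (44.4% called, beside 13.8% of all genes tested), with a median log2 of 0.46. Among the 4 were Alas2, the first enzyme in red cells (2252 to 11290 CPM, log2 2.33), Fech, the last (428 to 2068 CPM, log2 2.27) and Urod (log2 1.20). Alas1, the first enzyme in other cells, had a log2 value of -0.03 without a call.

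Of 13 genes that bring carriers into the inner membrane 0 rose and 1 fell (7.69% called, beside 13.8% of all genes tested), with a median log2 of -0.08; the one that fell was Tomm20, a receptor of the outer membrane (64.8 to 52.5 CPM, log2 -0.30, SE 0.0913, adjusted p = 0.0492). Of 17 tested channels and other carriers 5 rose and 1 fell (35.3% called), with a median of -0.03. Mpc2, a subunit of the pyruvate carrier, rose by log2 1.15 (27.0 to 60.2 CPM) and Vdac1, a pore of the outer membrane, by 0.55, while Sfxn3 fell by 0.46 on the log2 scale. Mpc1, the partner of Mpc2, had a log2 value of -0.23 (SE 0.167) without a call. Of 15 ATP synthase subunits 2 rose, Atp5l (log2 0.52) and Atp5b (log2 0.42), and the median was 0.01. That is 13.3% called, near the 13.8% of all genes tested. Of 12 matrix enzymes and chaperones 2 rose, the chaperonin genes Hspe1 (log2 0.81) and Hspd1 (log2 1.17), and the median was -0.06. Here 16.7% were called, also near the share of all genes tested. The groups overlapped for Hspd1, with saline replicate 5 at 167 CPM and fucoidan replicate 3 at 140 CPM. For Hspe1 the same 2 libraries stood at 85.0 and 87.3 CPM, without overlap. Transcripts of genes on mitochondrial DNA took 2.13 to 2.63% of counts after saline and 2.31 to 2.80% after fucoidan, with overlap between the groups.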

How the data were processed

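The authors deposited a table of raw counts per gene, every value a whole number, with gene names, biotypes, lengths and GRCm39 coordinates. Per the submitters' processing notes, reads were handled with cutadapt 4.0 and Trimmomatic 0.39 and aligned with HISAT2 2.2.1 to GRCm39; for the counting program, annotation release and strand setting, nothing is given in the sources used here. Gene lengths used for RPKM are another deposited column, and what they measure is not stated. Libraries were grouped by title. All genes were fitted together in edgeR 4.0.16 (R 4.3.3) with filterByExpr (minimum count 10), TMM factors and the robust quasi-likelihood test, adjusted over all genes that passed, with calls at adjusted p under 0.05. Each SE was derived from the log2 fold change and its F statistic (change over root F). Ratios of counts used a pseudocount of 0.5 for the log2 values, and exact permutation tests in scipy 1.17.1. Values in every library are given for each called member and for 12 members fixed by role, and for related lists up to 4 called members of smallest p. Slc25a16, Slc25a24, Slc25a36, Slc25a12, Slc25a43, Slc25a44, Mpc1 and Alas1 were named after their values were seen. The values of 1 member and of 2 genes of the related lists are not reported here. Members and lists were chosen with earlier results of these data known. The family's share of counts is a sum over its members and is therefore given with no p, although an exact permutation test had been planned.

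Nothing beyond the titles says that libraries came from separate animals, so p-values measure the spread between these samples. No library duplicated another. All labels give 1 batch date, so no batch could be separated. With the group means removed, libraries sharing a replicate number correlated at 0.177, 0.233 and 0.144, so a fit with that number as a block was run. It changed none of the 5 calls. The fits were tested on simulated data. Alternatives were other scaling factors and filters, DESeq2 1.42.0, limma-voom (limma 3.58.1), the block and leaving out each library.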

Additional observations from a re-analysis of the deposited data

Results flagged for a closer look

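In the 5 saline libraries, 51 sets of values (42 members, 8 ratios and the family's share) were searched for a library far from the other 4. For separate sets of normal values chance alone marks about 1 in 20, but the ratios and the share are built from the same members. The 8 found can therefore not be weighed against that rate. Saline replicate 3, the saline library with the highest haemoglobin share (8.48%), stood above the others in 4 of them: Slc25a39 at 464 CPM (others 172 to 238), Slc25a51 at 130 CPM (97.3 to 105), the log2 ratio of Slc25a37 to Slc25a28 at 2.51 (1.90 to 2.05) and the family's share of counts at 0.230% (0.206 to 0.210%). Saline replicate 1 stood above for Slc25a11 at 83.7 CPM (47.1 to 56.4) and Slc25a5 at 271 CPM (221 to 233), and below for Slc25a2 at 0.283 CPM (0.496 to 0.578). Slc25a32 was high in saline replicate 5, at 24.6 CPM (20.5 to 21.3).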

How the results depend on the processing

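Slc25a39, Slc25a37 and Slc25a51 kept their direction and their call under all 16 alternatives, including the replicate block (log2 1.94, 1.20 and 1.04). Slc25a10 and Slc25a21 also passed with the block (adjusted p = 0.0497 and 0.00798). The number of members called higher was 5 in the main fit, 3 without fucoidan replicate 3, 4 with at least 10 counts in every library (Slc25a21 was then not tested), 6 by DESeq2 and 7 by limma-voom; leaving out 1 library gave 3 to 6 higher and 0 lower. Over all genes the share of calls that were higher was 66.2%, and 55.7% with upper-quartile factors; no scaling moved the median of all genes by more than 0.1. Of the 37 members not called, 15 changed sign under at least 1 alternative. Slc25a43 ranged from -0.0916 to 0.94 on leaving out 1 library.

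The family's share of counts was higher by 0.0559 percentage points after fucoidan, 0.0370 to 0.0705 on leaving out 1 library, and 0.103 when haemoglobin was left out of the total. Leaving it out shrinks the total more after fucoidan, where haemoglobin took 13.5 to 24.1% of counts, than after saline (3.51 to 8.48%). The other 4 ratios had no stable sign: Slc25a4/Slc25a5 stood at -0.03 and at 0.0625 within replicate numbers (replicate block), and from -0.10 to 0.0201 on leaving out 1 library; Slc25a33/Slc25a36 stood at -0.03, at 0.0074 with a pseudocount of 5, and from -0.15 to 0.0534 on leaving out 1 library; Slc25a12/Slc25a13 ran from -0.0322 to 0.31 and Slc25a22/Slc25a18 from -0.84 to 0.0200. The 4 ratios without overlap kept their direction throughout. Leaving out 1 library leaves too few arrangements for a p under 0.05. Slc25a21 rests on 2 to 28 counts a library.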
